A study of Canis lupus familiaris with 4 samples.

Results

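The genes of cellular iron uptake and storage were followed in MDCK cells, a canine kidney epithelial line, across 4 conditions. The 9 genes were chosen by symbol, and 8 of them had at least 1 probe set that carries a single gene symbol in the annotation of the array, of 15115 genes with such a probe set. These 8 genes were *TFRC*, *FTH1*, *FTL*, *IREB2*, *ACO1*, *NCOA4*, *STEAP3* and *FBXL5*, with 16 of the 29254 probe sets in all. *TF*, which encodes transferrin, had none and was not analysed here. The conditions were control cells and HIF2α-KD cells, each in normoxia (16% O2) and in hypoxia (1% O2), with 1 Affymetrix canine array per condition. All cells were MDCK strain II and spent 24 h in normoxia followed by 24 h at the stated oxygen level. The sample labels give the control cells as wild type, whereas the study's methods describe control cells that carry an empty shRNA cassette after retroviral infection and puromycin selection, and HIF2α-KD cells made the same way with an shRNA against HIF2α. The study names the line on its normoxic array as HIF2α-KD#1, the labels name no line, and each oxygen level has 1 knockdown array.

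Cells take up iron bound to transferrin through the transferrin receptor, and the iron is then reduced in the endosome by a STEAP reductase before it enters the cytosol. Iron that is not used is stored in ferritin, a shell of heavy and light chains, and is released again when NCOA4 carries ferritin to the lysosome. The iron regulatory proteins encoded by *ACO1* and *IREB2* bind iron-responsive elements when iron is scarce, which protects the transferrin receptor mRNA from decay and blocks the translation of ferritin mRNA. FBXL5 is an iron- and oxygen-binding subunit of a ubiquitin ligase that marks the product of *IREB2* for degradation. *TFRC* is also a known target gene of the hypoxia-inducible factors, and the mRNA of HIF2α itself carries an iron-responsive element. The arrays measured mRNA levels and neither protein nor iron.

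The deposited values are linear intensities per probe set. Background was read from 63 dim reporter probe sets, which represent no canine gene and whose 95th percentiles were between 20.6 and 27.2 on the 4 arrays. Differences are those of log2(intensity + 16), where dim probe sets show a smaller change than on the linear scale, and a probe set was called different at 2-fold or more, a log2 difference of 1. Since a pair of arrays has no replicates, such a call has no p-value. The filter on low values kept 17221 probe sets whose highest intensity reached 28.64, the median of all values. It kept 14 of the 16 probe sets and 7 of the 8 genes, all but *STEAP3*. The arrays were also fitted together by limma in a model that adds an oxygen term to a cell line term, which leaves 1 residual degree of freedom and treats the oxygen difference as equal under both cell line labels. With 1 array per condition, its standard errors (SE) and p-values do not measure spread between replicate samples. They rest on how far the oxygen differences under both labels lie apart, pooled in part over all probe sets. The median intensity of the arrays was between 28.2 and 29.1, and correlations between arrays were between 0.969 and 0.988 across probe sets. The targeted gene *EPAS1*, which encodes HIF2α, read 44.6 (control) and 47.9 (knockdown label) in normoxia, and 116 and 32.6 in hypoxia. At this probe set the hypoxic arrays thus showed less *EPAS1* in the knockdown, whereas the normoxic ones did not. The other *EPAS1* probe set read at most 6.39, below the 95th percentile of the reporters on every array. By RT-qPCR the study reported a fall of this mRNA in its HIF2α-KD lines. Of 15 known hypoxia genes, 13 passed the filter and all 13 were higher in hypoxia by limma at an adjusted p under 0.05. *ADM*, which encodes a vasodilator peptide, was highest among them between the control arrays at a log2 difference of 4.59. *NDRG1* and *EGLN3* passed the filter only through their hypoxic values, with normoxic values of at most 18.4 and 25.5. *CA9* and *BNIP3* did not pass, with values of at most 28.4 and 26.7, and could not add to the count. Of 5 epithelial markers, 4 or 5 exceeded the 95th percentile of the reporters on each array, with a summed intensity between 26017 and 28057. The marker that did not exceed it in normoxia was *CDH1*, at 15.45 in control cells and 18.9 under the knockdown label. In hypoxia *CDH1* read 119 and 81.4 (oxygen term 1.79 ± 0.197, limma adjusted p = 0.00368). Markers of other cell types had lower sums. Those of fibroblasts summed to between 101 and 207, with 1 or 2 of 7 above the reporters, and those of leukocytes to between 129 and 157, with 3 or 4 of 5 above them. The fibroblast marker *PDGFRA* moved with oxygen, at 31.5 in control cells and 33.8 under the knockdown label in normoxia and at 145 and 75.7 in hypoxia (oxygen term 1.32 ± 0.219, limma adjusted p = 0.018), and its part in the results on *TFRC* was not tested. The endothelial marker *CDH5* read between 88.8 and 117 and the erythroid marker *EPOR* between 110 and 125.

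*TFRC*, the receptor gene of transferrin uptake, was the only gene of the group that reached a 2-fold difference, and both of its probe sets were higher in hypoxia under both cell line labels. Its brighter probe set had normoxic intensities of 31.9 in control cells and 40.1 under the knockdown label, and hypoxic intensities of 252 and 172. Its other probe set gave 43.8 and 37.9 in normoxia and 156 and 135 in hypoxia, in the same order. On both probe sets the normoxic values lay together, close above the reporters, and the hypoxic values lay well apart from them, with the control array above the knockdown-labelled array.

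**Figure D1:**
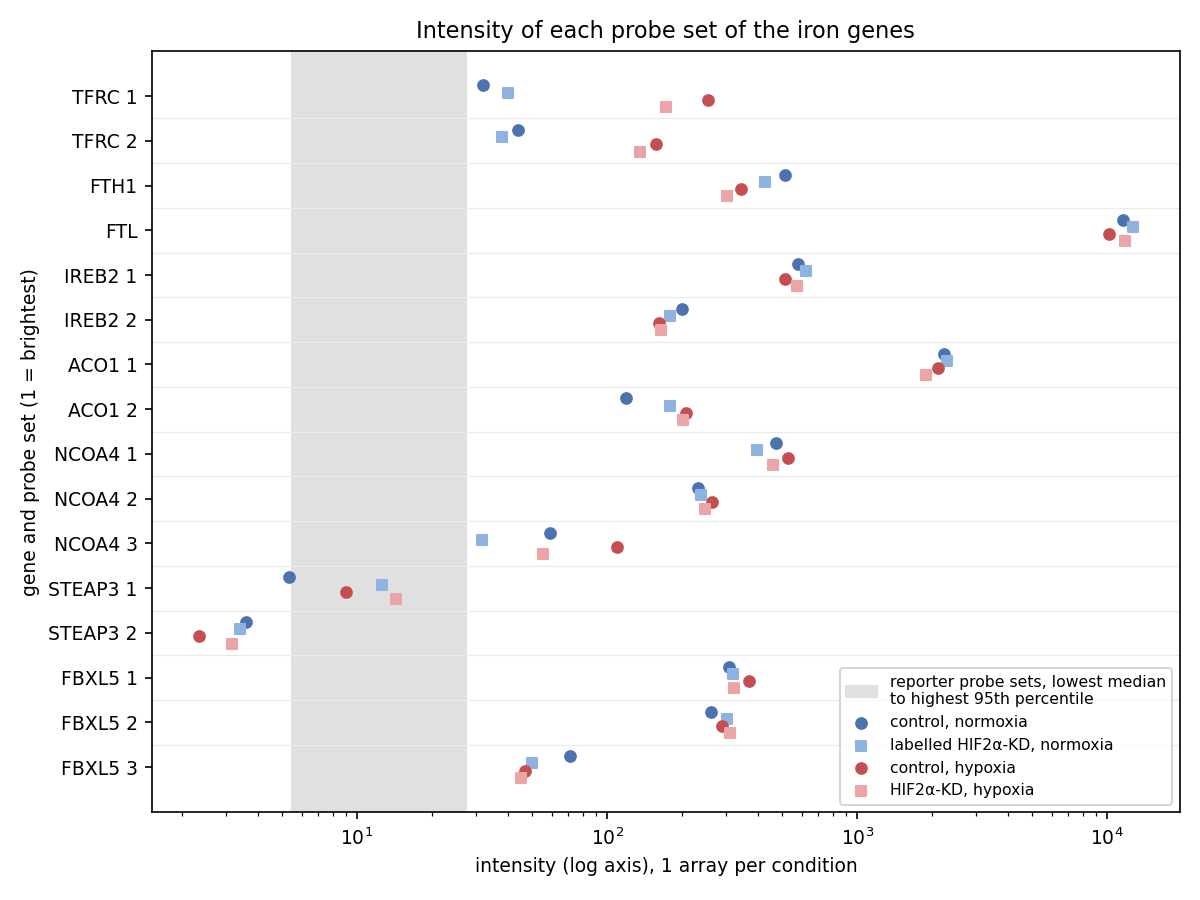
Intensity of the 16 probe sets over the 4 conditions (log axis), each point being a single array without error bars. Probe sets of a gene are numbered from the brightest, and the reporter probe sets set the grey band, whose edges are their lowest median and highest 95th percentile, 5.48 to 27.2. The hypoxic points of *TFRC* stand clear of the normoxic ones, whereas both probe sets of *STEAP3* lie in or below the band.

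Between the control arrays the brighter *TFRC* probe set differed by 2.48 on the log2 scale, the 26th highest of 17221 probe sets, and its linear ratio was 7.90. The other probe set differed by 1.53 with a linear ratio of 3.57 and ranked 171st. Between the knockdown-labelled arrays the differences were 1.74 and 1.48, at ranks 53 and 90 from the top. The 2 *TFRC* probe sets were thus the 2 of 14 that were called higher in each pair, where 3.60% of all probe sets kept were called higher in control cells and 1.48% under the knockdown label. No probe set of the group was called lower, against 0.610% and 0.505% of all. Of 4915 genes with at least 2 probe sets kept, 330 had a probe set that was 2-fold higher between the control arrays, and in 75 of these, *TFRC* among them, every probe set was. At 1.5-fold, 4 of 14 probe sets of the group differed between the control arrays, against 16.2% of all.

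In the limma fit over all 4 arrays, the oxygen term of *TFRC* was 2.11 ± 0.195 (SE, adjusted p = 0.0018) at the brighter probe set and 1.51 ± 0.146 (adjusted p = 0.00229) at the other. They were 2 of 14 probe sets of the group called by limma for oxygen, where 4.13% of all probe sets were called higher and 1.05% lower. At an unadjusted p under 0.05 there were 5 of 14, where 2572 of all 17221 probe sets were higher and 1380 were lower. The calls for *TFRC* held at 1 or both probe sets under 9 of 10 alternatives and were lost without the filter on low values, where the adjusted p was 0.0601 and 0.0574.

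**Figure D2:**
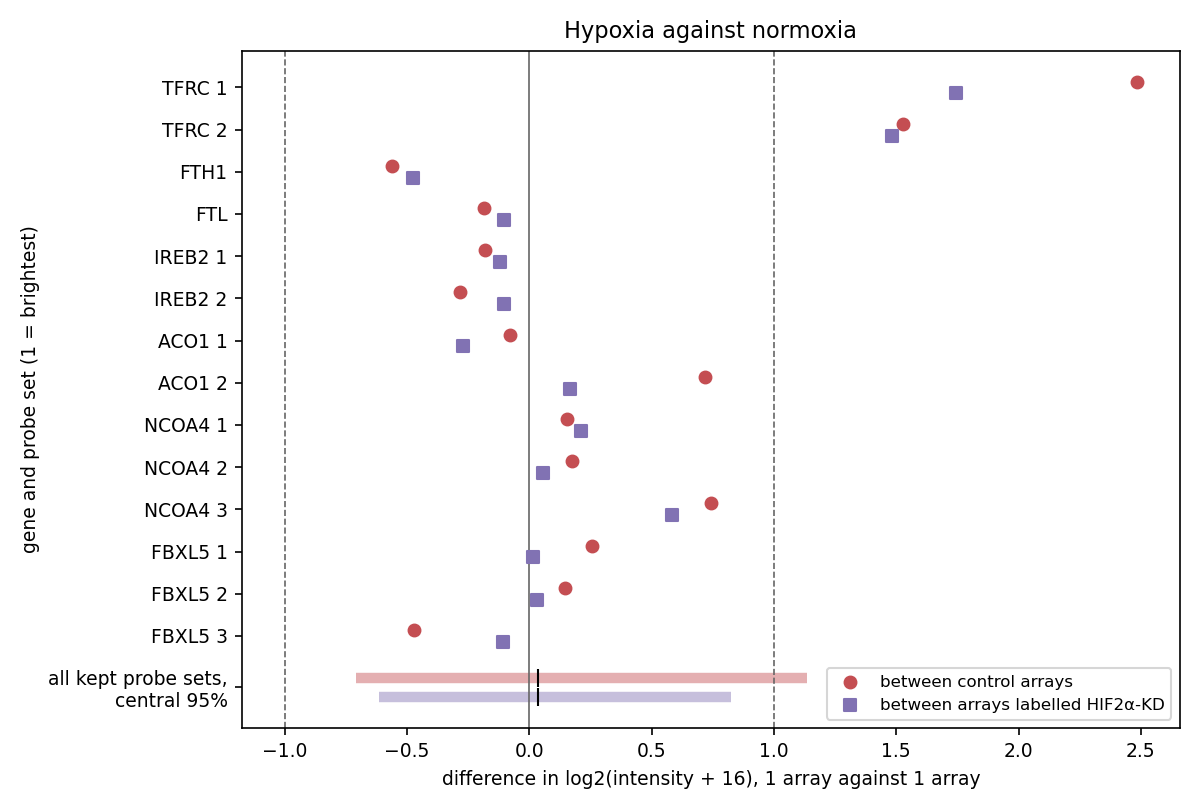
Difference in log2(intensity + 16) between hypoxia and normoxia for the 14 probe sets kept, between the control arrays (circles) and between the knockdown-labelled arrays (squares). Dashed lines mark 2-fold, and the bars at the bottom hold the central 95% of all 17221 probe sets with a tick at the median. Both *TFRC* probe sets lie beyond the upper line in both pairs, *FTH1* lies below 0 in both, and none of the other 12 probe sets reaches 2-fold.

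The ferritin genes did not follow *TFRC*. *FTH1*, which encodes the heavy chain that oxidises iron as it enters the shell, had 1 probe set, with intensities of 512 in control cells and 428 under the knockdown label in normoxia and of 342 and 303 in hypoxia. Both hypoxic values were below both normoxic values. The log2 differences with hypoxia were -0.56 (control) and -0.48 (knockdown label), and 5.27% and 5.02% of all probe sets kept had a lower value. The oxygen term was -0.52 ± 0.148 (SE), and limma did not call it (adjusted p = 0.0872, between 0.0595 and 0.198 over the alternatives). *FTL*, which encodes the light chain that helps the mineral core to form, was bright on all arrays at its probe set, with 11542 and 12682 in normoxia and 10155 and 11794 in hypoxia on the control and knockdown-labelled arrays in that order. Its differences with hypoxia were -0.18 and -0.10, and the oxygen term was -0.14 ± 0.0756 (limma adjusted p = 0.302). The name of this probe set marks probes that may bind other sequences too, ferritin genes have many processed copies in mammalian genomes, and 2 further probe sets that share the symbol with another gene were left out, so the values of *FTL* are uncertain. Whether such copies also add to the values of *FTH1* was not tested. The brightest probe set of each array read between 18723 and 19831, and whether *FTL* was near the top of the measurable range was not tested.

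*IREB2*, which encodes iron regulatory protein 2, had 582, 624, 512 and 573 at its brighter probe set on the control and knockdown-labelled arrays in normoxia and then in hypoxia, and 199, 178, 161 and 165 at the other. All 4 of its differences with hypoxia were below 0, between -0.28 and -0.10, and the oxygen terms of -0.15 ± 0.146 and -0.19 ± 0.146 were not called by limma (adjusted p = 0.592 and 0.476). *ACO1*, which encodes a cytosolic aconitase that turns into iron regulatory protein 1 when it loses its iron-sulphur cluster, was bright at 1 probe set, with 2219, 2280, 2097 and 1887 in the same order of arrays. There its differences with hypoxia were -0.08 between the control arrays and -0.27 between the knockdown-labelled arrays. Its other probe set gave 119, 178, 206 and 202, so that the control array in normoxia stood below the other 3. It differed by 0.72 between the control arrays and 0.16 between the knockdown-labelled arrays, and the oxygen term of 0.44 ± 0.173 was not called (limma adjusted p = 0.181). The probe sets of *ACO1* therefore disagreed in sign for hypoxia, as those of 34.9% of genes with several probe sets did between the control arrays.

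*FBXL5*, the gene of the ligase subunit that limits IREB2 protein, had 3 probe sets. The brightest gave 307, 318, 370 and 321 on the control and knockdown-labelled arrays in normoxia and then in hypoxia, and the next gave 259, 303, 289 and 310. Their differences with hypoxia were 0.26 and 0.15 between the control arrays and 0.01 and 0.03 between the knockdown-labelled arrays. The third was dimmer, at 71.3, 49.95, 47.0 and 45.1, with the control array in normoxia above the other 3, and differed by -0.47 and -0.11. None was called by limma for oxygen, with adjusted p-values of 0.652, 0.768 and 0.355.

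*NCOA4*, the cargo receptor that delivers ferritin to lysosomes, also had 3 probe sets, and they did not move alike. The brightest gave 473, 396, 527 and 462 in the same order of arrays, and the next gave 231, 237, 262 and 246. Their differences with hypoxia lay between 0.05 and 0.21 in both pairs, and their limma adjusted p-values for oxygen were 0.508 and 0.699. The dimmest gave 59.1 and 31.7 in normoxia and 110 and 55.4 in hypoxia, with the control array above the knockdown-labelled one at each oxygen level and the hypoxic array above the normoxic one under each label. It differed by 0.74 and 0.58 with hypoxia. Its oxygen term of 0.66 ± 0.156 lay just short of the limma threshold, at an adjusted p of 0.0518 (between 0.0427 and 0.201 over the alternatives, 3 of which called it).

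*STEAP3*, which encodes an endosomal ferrireductase, was not measured above background. Its probe sets gave 5.37, 12.6, 9.05 and 14.3 and 3.61, 3.42, 2.33 and 3.17, all below the 95th percentile of the reporters on the same array. No difference is given for it.

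None of the 14 probe sets was 2-fold different between the knockdown-labelled array and the control array, in normoxia (1.16% of all probe sets kept) or in hypoxia (0.981%). At 1.5-fold there was 1 of 14 at each oxygen level, against 6.18% of all in normoxia and 6.88% in hypoxia. The median difference was 0.04 in normoxia and -0.12 in hypoxia, against -0.04 at both oxygen levels over all probe sets. limma called 0 of 14 for the cell line term, and 0.0755% of all probe sets. At an unadjusted p under 0.05 there were 2 of 14, the dimmest *NCOA4* probe set and *FTL*. Of all 17221 probe sets, 377 were higher and 1382 lower at that p. That *NCOA4* probe set had the largest knockdown difference of the group at both oxygen levels, -0.65 in normoxia and -0.82 in hypoxia, with linear ratios of 0.537 and 0.505. Its cell line term was -0.73 ± 0.156 (limma adjusted p = 0.153). The brighter *NCOA4* probe sets differed by -0.25 and 0.03 in normoxia and by -0.19 and -0.09 in hypoxia. *FTL* was higher by 0.14 and 0.22 (cell line term 0.18 ± 0.0756, limma adjusted p = 0.486). *FTH1* differed by -0.25 in normoxia and -0.17 in hypoxia.

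**Figure D3:**
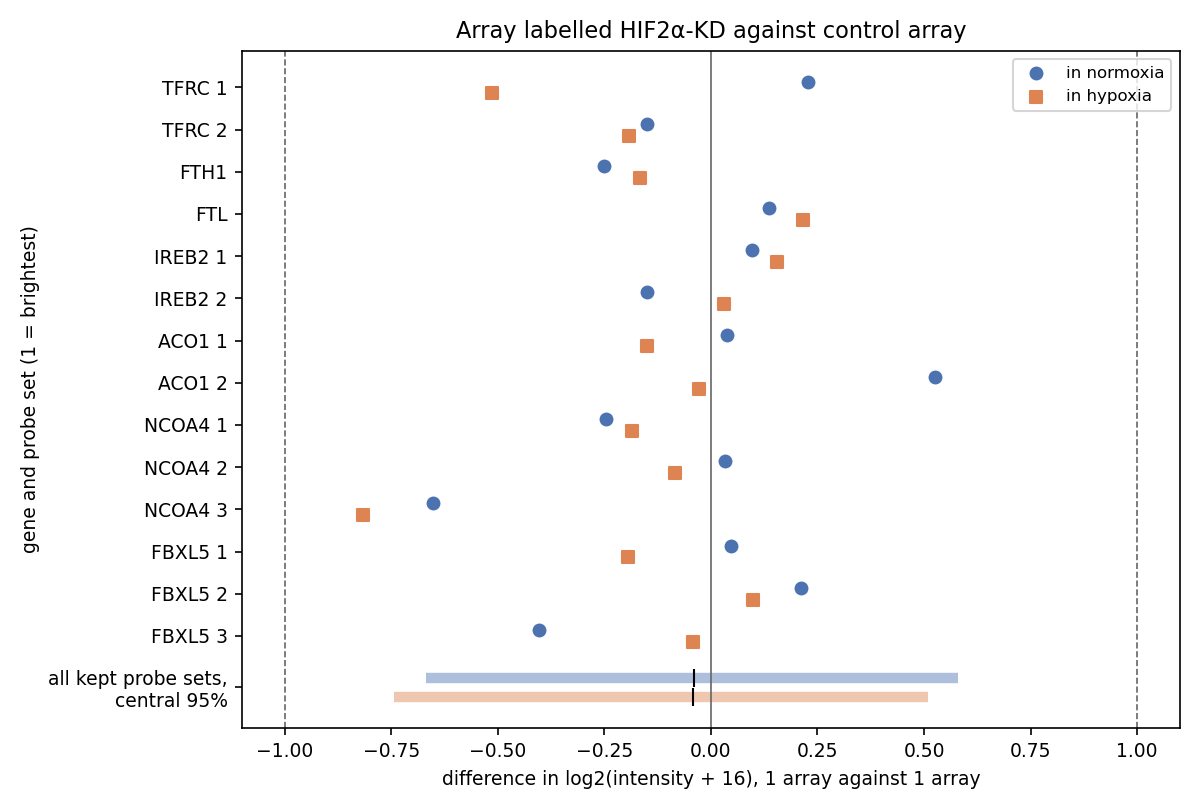
Difference in log2(intensity + 16) between the knockdown-labelled array and the control array for the 14 probe sets kept, in normoxia (circles) and in hypoxia (squares). Dashed lines mark 2-fold, and the bars hold the central 95% of all 17221 probe sets with a tick at the median. All points lie between the dashed lines, with the third *NCOA4* probe set farthest to the left at -0.65 and -0.82.

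For *TFRC*, the knockdown-labelled array differed from the control array in normoxia by 0.23 at the brighter probe set and by -0.15 at the other, so that no common direction was measured. In hypoxia the differences were -0.51 and -0.19. The cell line terms were -0.14 ± 0.195 and -0.17 ± 0.146 (limma adjusted p = 0.874 and 0.78). The hypoxia difference was smaller under the knockdown label than in control cells by 0.74 on the log2 scale at the brighter probe set, and 6.26% of all probe sets had a larger gap in size. At the other probe set it was smaller by only 0.04. These gaps rest on 4 single arrays and could not be tested, and the normoxic knockdown array that enters them is the one on which *EPAS1* was not lower. The next largest gap in size was -0.55, at the dimmer *ACO1* probe set.

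Other genes of iron handling and of linked processes were described from 8 lists, each gene by its brightest probe set. The lists also hold autophagy genes, genes of glutathione and tetrahydrobiopterin synthesis and of lipids, and *EPAS1*. Of 99 such genes with a probe set, 82 passed the filter. Between the control arrays 6 of the 82 were 2-fold higher and 1 was 2-fold lower in hypoxia, 8.54% together against 3.58% of all 9766 genes. The higher ones were *CUBN*, *FLVCR1*, *EPAS1*, *RB1CC1*, *SQSTM1* and *GCH1*, and the lower one was *GCLC*. *RB1CC1* and *SQSTM1* came from the list on the ferritin lysosome route, and *GCH1* and *GCLC* from that on lipid peroxidation. The median difference was -0.03, against 0.03 over all genes. Between the knockdown-labelled arrays 2 were higher, *BMP2* and *LPCAT3*, and none was lower (1.80% of all genes called). Under the knockdown label 1 was higher in normoxia, *GCH1*, and 2 were lower, again *BMP2* and *LPCAT3* (1.16% of all genes called). Both of these counts use the normoxic knockdown array, so they are not separate results. In hypoxia 2 were lower (0.983%), namely *EPAS1*, the target of the shRNA itself, and *STEAP2*, whose knockdown value was within background. At 1.5-fold 17 differed between the control arrays (14.5% of all genes). For the oxygen term limma called 7 higher and 2 lower, where 4.68% of all genes were called in either direction.

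Of 12 genes of iron import and export kept, *CUBN*, which encodes cubilin, an endocytic receptor that can take up transferrin, was the only one 2-fold different between the control arrays, at 183, 214, 432 and 307 on the control and knockdown-labelled arrays in normoxia and then in hypoxia. It differed by 1.17 between the control arrays and 0.49 between the knockdown-labelled arrays, and its oxygen term was 0.83 ± 0.189 (limma adjusted p = 0.049, called in 6 of the 11 fits run). *CP*, the gene of the plasma ferroxidase ceruloplasmin, differed by 0.65 between the control arrays and -0.25 between the knockdown-labelled arrays, and *SCARA5*, a receptor gene for ferritin, by -0.73 and -0.61. Neither of them was called by limma in the main fit, and *SCARA5* was called in 2 of the alternative fits. The hypoxic control value of *SCARA5*, 19.7, lay below the 95th percentile of the reporters on that array, so its difference there is not exact. *STEAP2*, a relative of *STEAP3*, read 45.1 in control cells and 31.4 under the knockdown label in normoxia, and 70.1 and 23.3 in hypoxia. The last value lay below the 95th percentile of the reporters on its array, 24.2, so the log2 difference of -1.13 in hypoxia is not exact, and it ran from -1.55 to -0.62 over the settings, on both sides of 2-fold. The importer gene *SLC11A2* and the iron exporter gene *SLC40A1* differed by 0.25 and 0.34 between the control arrays, whereas the other probe sets of *SLC11A2* lay between -0.75 and 0.33 and that of *SLC40A1* at -0.08.

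Among 9 genes kept that control hepcidin, limma called *BMP2*, a ligand of the pathway, and *SMAD4*, the shared signal transducer, higher in hypoxia. *BMP2* had 725 on the control array and 335 on the knockdown-labelled array in normoxia and 1282 and 1446 in hypoxia, with differences of 0.81 and 2.06 (oxygen term 1.43 ± 0.264, limma adjusted p = 0.0251, called in 7 of 11 fits). *SMAD4* differed by 0.64 and 0.63 (limma adjusted p = 0.0422, called in 6 of 11 fits). *HAMP*, the hepcidin gene itself, was close to background, at 29.8, 51.3, 29.4 and 34.3. Of 16 genes of haem synthesis, transport and breakdown, limma called 1, the haem exporter gene *FLVCR1*, at 72.3, 83.9, 163 and 155, with differences of 1.02 and 0.78 (oxygen term 0.90 ± 0.148, limma adjusted p = 0.0179, called in 9 of 11 fits). *ALAS1*, the first enzyme of haem synthesis, differed by 0.75 between the control arrays and -0.01 between the knockdown-labelled arrays.

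Of 14 genes of mitochondrial iron and iron-sulphur clusters, none reached 2-fold, 10 were below 0 between the control arrays, and the median was -0.12. Of all 9766 genes, 4572 were below 0 in that pair. Between the knockdown-labelled arrays 8 of the 14 were above 0, with a median of 0.03. *SLC25A37*, which encodes the mitochondrial iron importer mitoferrin 1, was called lower by limma (oxygen term -0.68 ± 0.145, adjusted p = 0.0416, called in 7 of 11 fits), with intensities of 1234 and 1055 in normoxia and 708 and 709 in hypoxia. In the 10 genes of cytosolic iron-sulphur assembly and iron chaperones none was called, 7 were below 0 between the control arrays, and the lowest was *MMS19* at -0.52, whose other probe set gave 0.37. Of 11 partners of FBXL5 and of the lysosomal route of ferritin, *RB1CC1* and *SQSTM1* were called higher. *RB1CC1*, a gene of autophagosome initiation, differed by 1.02 and 0.98 (oxygen term 1.00 ± 0.142, limma adjusted p = 0.0101, called in 10 of 11 fits). Under the knockdown label it differed from control by -0.64 in normoxia and -0.67 in hypoxia (cell line term -0.65 ± 0.142, limma adjusted p = 0.158). *ATP6V1A*, of the same list, differed from control by -0.70 and -0.75 (cell line term, limma adjusted p = 0.131), and neither cell line term was called. *SQSTM1*, which encodes the autophagy receptor p62, differed with hypoxia by 1.72 and 0.59 (1.16 ± 0.247, limma adjusted p = 0.04, called in 5 of 11 fits). The ligase partner genes *SKP1* and *CUL1* differed by 0.08 and -0.12 between the control arrays, whereas the other probe sets of *CUL1* lay between -0.43 and 0.56. Among 4 kept genes whose mRNA carries an iron-responsive element, *EPAS1* differed by 1.13 between the control arrays and -0.40 between the knockdown-labelled arrays.

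**Figure D4:**
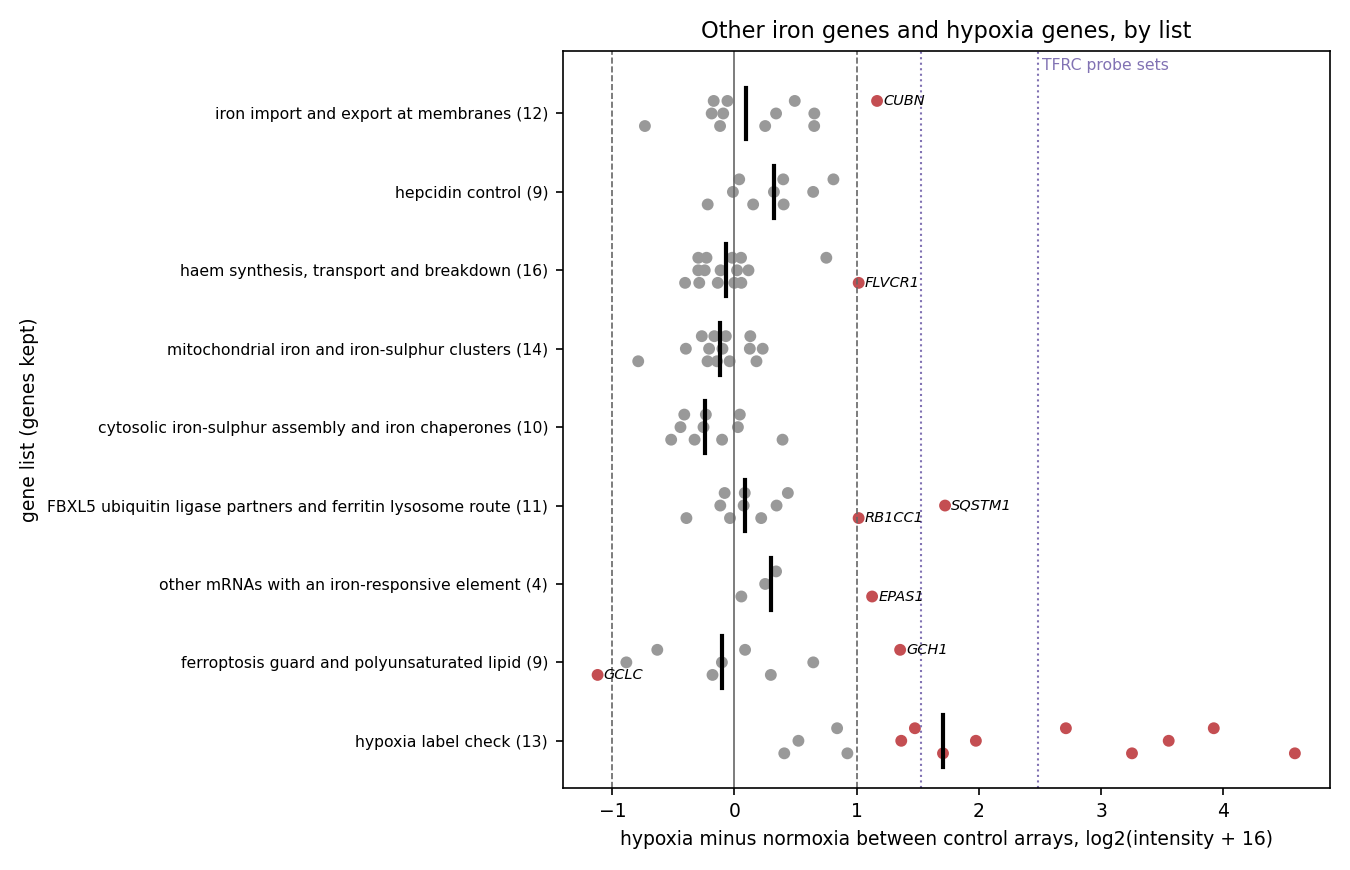
Difference in log2(intensity + 16) between hypoxia and normoxia on the control arrays for the genes of each list, with the number of genes kept in brackets. Each point is 1 gene by its brightest probe set, black bars are list medians, genes at 2-fold or more are red, and dotted lines mark the *TFRC* probe sets at 1.53 and 2.48. Among the iron lists only *SQSTM1*, at 1.72, lies above the lower of these lines, whereas the hypoxia genes at the bottom have a median of 1.71.

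The 5 genes whose profile over the 4 arrays lay closest to the brighter *TFRC* probe set, of 9765 others, were *FAM20B*, *PKM*, *CLCN4*, *ZSWIM6* and *CDH1*. Likeness was the Euclidean distance between log2 profiles centred on their mean, and it was between 0.210 for *FAM20B*, a xylose kinase gene, and 0.328 for *CDH1*, the E-cadherin gene. *CDH1* had 15.4 on the control array and 18.9 on the knockdown-labelled array in normoxia, both within the range of the reporters, and 119 and 81.4 in hypoxia. With 4 arrays many genes share such a profile, and the normoxic values of all 5 were at most 54.7. *CDH1* passed the filter only through its hypoxic values. On the control array in normoxia *PKM* read 17.5 and *ZSWIM6* 20.3, below the 95th percentile of the reporters there, 27.2. These likenesses therefore rest in part on values within background.

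**Figure D5:**
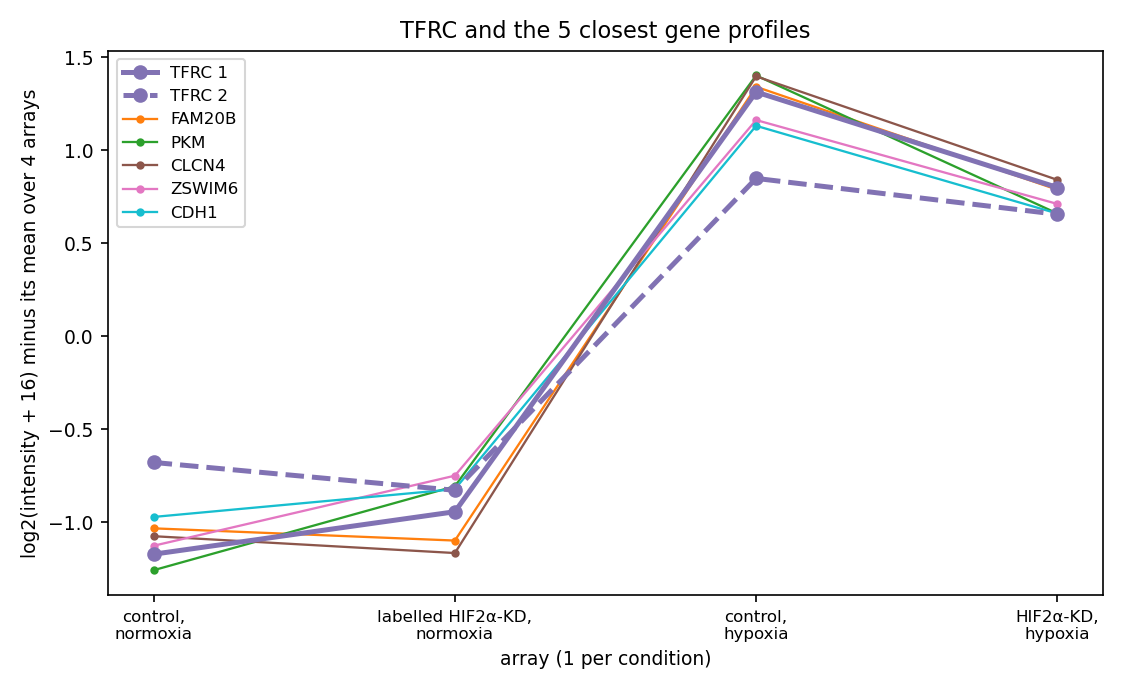
Profiles of both *TFRC* probe sets and of the 5 genes closest to the brighter one, as log2(intensity + 16) minus its mean over the 4 arrays. Every profile is low on both normoxic arrays, highest on the control array in hypoxia and lower again on the knockdown-labelled array in hypoxia, by 0.51 for the brighter *TFRC* probe set and 0.19 for the other.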

How the data were processed

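Total RNA from 1 sample per condition was biotin-labelled with a kit for 3' expression arrays and hybridised by the authors to canine arrays. The deposited table holds linear intensities of 42924 probe sets, summarised by the authors, the summary software, background correction and scaling being not given in the sources used here. Gene names come from the platform annotation (29254 probe sets with 1 symbol, 439 with several, 13167 with none and 64 reporters, of which 1 bright one was left out). The members and lists were chosen with earlier results of these data known. Groups follow the sample labels. Differences are of log2(intensity + 16), called at 2-fold without a test, since each condition has 1 array and the number of arrays limits the precision. limma 3.58.1 in R 4.3.3 fitted oxygen and cell line with a mean-dependent prior over 17221 probe sets, with Benjamini-Hochberg adjustment at 0.05. On simulated data with the same noise (SD 0.111) for every probe set, it recovered all changed probe sets with 8 false calls. Those data had no cell line difference and equal oxygen differences under both labels, so they cannot show how reliable the calls are on the real arrays. Python 3.11.15, numpy 2.4.6, pandas 2.3.3 and matplotlib 3.10.9 were used. The genes named are all members, *EPAS1*, up to 4 genes per list with the largest difference in any pair, and the 5 closest profiles to the member with the largest range. *SKP1*, *CUL1*, *ACSL4*, *GCLM*, *SLC7A11*, *HJV*, *ALAD*, *PDGFRA*, *CDH5* and *EPOR* were named for their role, value or call, after their values were seen. Alternatives were pseudocounts of 1 and 64, median, quantile and cyclic loess scaling, filtering at the 75th percentile (174.72) or not at all, a 1.5-fold call, 1 value per gene, and limma without trend or robust. No genome or sequence was used.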

Additional observations from a re-analysis of the deposited data

How the results depend on the processing

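The 2 member probe sets called higher in hypoxia, both of *TFRC*, kept their direction under all scalings and pseudocounts. Between the control arrays the count became 1 with the filter at the 75th percentile, 1 with the brightest probe set per gene, 1 with the mean of probe sets per gene, where *TFRC* is a single value, and 4 at 1.5-fold. Between the knockdown-labelled arrays it became 1 under the same filter and both values per gene, and 1 with a pseudocount of 64, where the dimmer *TFRC* probe set differed by 0.96. The 0 calls under the knockdown label became 1 at 1.5-fold in normoxia and 1 in hypoxia, the dimmest *NCOA4* probe set. The 2 limma calls for oxygen became 0 without the filter, where 29254 probe sets were tested, 1 with the filter at the 75th percentile and 1 with the brightest probe set, and 3 with a pseudocount of 1, median centring or robust moderation. limma called 891 probe sets for oxygen in all, 54 without the filter, 500 without trend and 596 after cyclic loess, and for cell line 13, 0, 0 and 0. Of the other genes in the iron lists, 7 were 2-fold different between the control arrays, 4 with a pseudocount of 64 and 17 at 1.5-fold. Of 540 further checks of single probe sets, 534 kept their side of the threshold, 3 fell below it and 3 passed it, and none of the called ones reversed. No paired analysis was possible because each condition has 1 array and the labels carry no replicate numbers. With 1 array per condition, no array could be left out.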

Other observations

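A list of 9 genes that guard against iron-dependent lipid peroxidation or supply its lipid substrates held *GCLC*, the only gene of the iron lists whose brightest probe set was 2-fold lower in hypoxia between the control arrays. Dimmer probe sets of *HJV* and *ALAD* were lower too, at -1.24 and -1.09, where the brightest of each gave 0.40 and -0.23. Even the brightest *HJV* probe set read only between 22.9 and 35.3, near background, so the difference at its dimmer probe set is not exact. *GCLC*, the catalytic subunit of the first enzyme of glutathione synthesis, had 950 on the control array and 1089 on the knockdown-labelled array in normoxia, and 428 and 547 in hypoxia. Both hypoxic values lay below both normoxic ones, its other probe set differed by -1.14 between the control arrays, and its oxygen term was -1.05 ± 0.146 (SE, limma adjusted p = 0.00937, called in 10 of 11 fits). *GCLM*, its regulatory subunit, was not called by limma (-0.30 ± 0.139, adjusted p = 0.249). *ACSL4*, which activates polyunsaturated fatty acids, was higher in hypoxia by 0.69 ± 0.147 (limma adjusted p = 0.0395, called in 6 of 11 fits). *DHODH*, a mitochondrial enzyme of pyrimidine synthesis, gave -0.67 ± 0.161 (limma adjusted p = 0.0547, called in 3 of the alternative fits).

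*GCH1*, which encodes the first enzyme of tetrahydrobiopterin synthesis, had 180 on the control array and 481 on the knockdown-labelled array in normoxia, and 485 and 376 in hypoxia. The control array in normoxia thus stood below the other 3, and the hypoxia differences were 1.36 (control) and -0.34 (knockdown label). limma, which treats these as equal, did not call it for oxygen (adjusted p = 0.418). *SLC7A11*, the cystine importer gene, read 44.9 in control cells and 20.3 under the knockdown label in normoxia, and 48.7 and 19.9 in hypoxia. Both knockdown values lay below the 95th percentile of the reporters on their arrays, so no exact difference is given, and limma did not call its cell line term (adjusted p = 0.171).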
